A study of Homo sapiens with 8 samples.

Results

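A set of 47 genes of interferon response and antigen processing, given by name, was followed on 8 Affymetrix Human Genome U95Av2 arrays, with a member represented by a probe set that the platform annotation ties to that gene symbol alone. Of the 47 genes, 44 were measured, among 8226 genes named in this way and 12558 probe sets tested, and IFI30, OAS3 and STAT2 were not analysed here. The 15 members with several such probe sets were represented by the one with the highest mean over the 8 arrays, which left 21 further probe sets. The set comprised 7 receptors and JAK kinases, 4 transcription factors, 26 interferon-induced antiviral effectors, 3 PML nuclear body proteins and 4 antigen processing genes. It was chosen with earlier results of these data known, so the shares of members below are a description.

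Interferons are cytokines that cells release on infection. Type I interferons bind the receptor chains IFNAR1 and IFNAR2, interferon gamma binds IFNGR1 and IFNGR2, and the kinases JAK1, JAK2 and TYK2 on these receptors switch on transcription factors that enter the nucleus. The induced genes encode antiviral enzymes and RNA binding proteins, components of PML nuclear bodies, and the machinery that carries peptides onto MHC class I molecules. In epithelial tumor cells the same pathway sets how well the cells are seen by T cells.

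The arrays came from 2 human prostate cancer cell lines. PC3 derives from a bone metastasis and lacks androgen dependence, and LNCaP derives from a lymph node metastasis and responds to androgen. Cells of each line expressed either activated Notch1, a transmembrane receptor in its signalling form, or green fluorescent protein (GFP) as the control, with 2 arrays for each of the 4 groups, named by line and transgene. Each line is a single model and both are established tumor lines, the vector behind these arrays is not given in the sources used here, and the study ran each sample in duplicate, so the p-values measure the spread between arrays, which may be technical.

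Values are log2 expression after robust multi-array averaging (RMA), so that a difference of 1 is a 2-fold change. A member is called where limma's moderated test, run on all 12558 probe sets, gave a Benjamini-Hochberg adjusted p under 0.05, and each change is given with its standard error (SE) and n = 2 arrays per group. Values under log2 5 are treated as low. The arrays of 2 groups often did not overlap, in 56% of all probe sets for Notch1 against GFP in PC3 and 57% in LNCaP. For LNCaP GFP against PC3 GFP this share was 78.4%. HES1, a direct Notch target, rose from 7.92 and 8.08 in PC3 GFP to 10.51 and 10.61 in PC3 Notch1, and from 8.41 and 8.47 in LNCaP GFP to 11.22 and 11.23 in LNCaP Notch1. Of the markers of each line, the 9 PC3 markers were all lower in LNCaP GFP than in PC3 GFP, beside 18.5% of all probe sets. The 5 LNCaP markers measured, of 8 listed, were all higher in LNCaP GFP, beside 40.3% of all probe sets. With activated Notch1, 4 of the 5 LNCaP markers fell in LNCaP, beside 9.32% of all probe sets, among them ACP3 (-1.91) and KLK2 (-1.51). Of the 9 PC3 markers, 6 rose in PC3, beside 4.19% of all probe sets. In LNCaP 1 of these 9 rose (11.1%, beside 8.01%), ANXA1, by 3.24. Array medians were 5.95 to 6.01 in PC3 and 6.28 to 6.36 in LNCaP, and the 3' minus 5' difference of the GAPDH control was -0.08 to 0.07 in PC3, 0.55 to 0.57 in LNCaP GFP and 0.36 to 0.40 in LNCaP Notch1.

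The promoters of these genes are known for the interferon-stimulated response element (ISRE), bound by the factor complex that type I interferon activates. It was searched for as GAAANNGAAA on both strands, in windows from 250 bases before to 50 bases after the start of transcription in RefSeq (GRCh38.p14). A window was given for 34 of the 44 members. The ISRE letters were found for 19 of the 34 (55.9%), against 4.38% of all 27305 genes with such windows. The gamma-activated site TTCNNNGAA, the element of interferon gamma, was found for 11 (32.4%) against 9.38% of genes, and GTGGGAA, the core bound by the Notch cofactor CSL, for 0 against 7.62%. The predicted CSL sites that the study gives for the Smad3 promoter do not hold these exact letters. A count of 0 thus does not show that CSL sites were absent. An ISRE match overlapped a gamma-activated site match in 4 members, BST2, IFI27, IFITM1 and MX1.

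The following 6 stretches are shown because their genes cover the ways in which ISRE-holding members behaved on these arrays. They lie at chr1:78649746-78649788 (plus strand) for IFI44 and chr10:89392482-89392554 (plus) for IFIT1, which were called in LNCaP and not in PC3, at chr3:146544652-146544711 (minus) for PLSCR1, which rose in both lines, and at chr1:1013359-1013424 (plus) for ISG15, which fell in LNCaP. The stretches of TAP1 at chr6:32853798-32853863 (minus) and B2M at chr15:44711348-44711413 (plus) belong to antigen processing genes called in neither line. Each reads 5′ to 3′ on the strand of its gene, ends before the start of transcription, and has the ISRE matches of either orientation in capitals, overlapping matches running together.
IFI44: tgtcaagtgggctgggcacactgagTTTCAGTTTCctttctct
IFIT1: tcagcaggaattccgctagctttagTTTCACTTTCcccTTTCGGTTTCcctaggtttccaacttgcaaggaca
PLSCR1: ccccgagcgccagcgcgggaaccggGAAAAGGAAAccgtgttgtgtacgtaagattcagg
ISG15: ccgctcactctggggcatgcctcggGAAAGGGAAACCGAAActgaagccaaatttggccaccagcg
TAP1: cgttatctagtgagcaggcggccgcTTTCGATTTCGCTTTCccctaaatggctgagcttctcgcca
B2M: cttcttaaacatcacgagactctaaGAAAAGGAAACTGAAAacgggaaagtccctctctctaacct

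The first question was which members moved with activated Notch1 in PC3. In PC3, 4 members rose (PLSCR1, IFNAR2, JAK1 and IFNGR1) and 1 fell (OAS1), while 39 were not called. These are 9.09% and 2.27% of the 44, beside 4.19% and 2.01% of all probe sets called higher and lower in that comparison. The median change was -0.15 over the members and -0.08 over all probe sets. In LNCaP, 5 members rose (IFI44, PLSCR1, IFNGR1, JAK1 and IFIT1) and 2 fell (JAK2 and ISG15). These are 11.4% and 4.55% of the 44, beside 8.01% and 9.32% of all probe sets. The median change was 0.01 over the members and 0.04 over all probe sets. The shifts of GAPDH and of the line markers given above moved with Notch1 in the same arrays, and their part in these changes was not tested. In these bulk RNA samples, fewer expressing cells and less RNA per cell cannot be told apart. PLSCR1, IFNGR1 and JAK1 were called in the same direction in both lines, and 35 members were called in neither. For all 39 uncalled members in PC3 and all 37 in LNCaP, the 95% interval of the change lay within 2-fold in either direction.

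**Figure D1:**
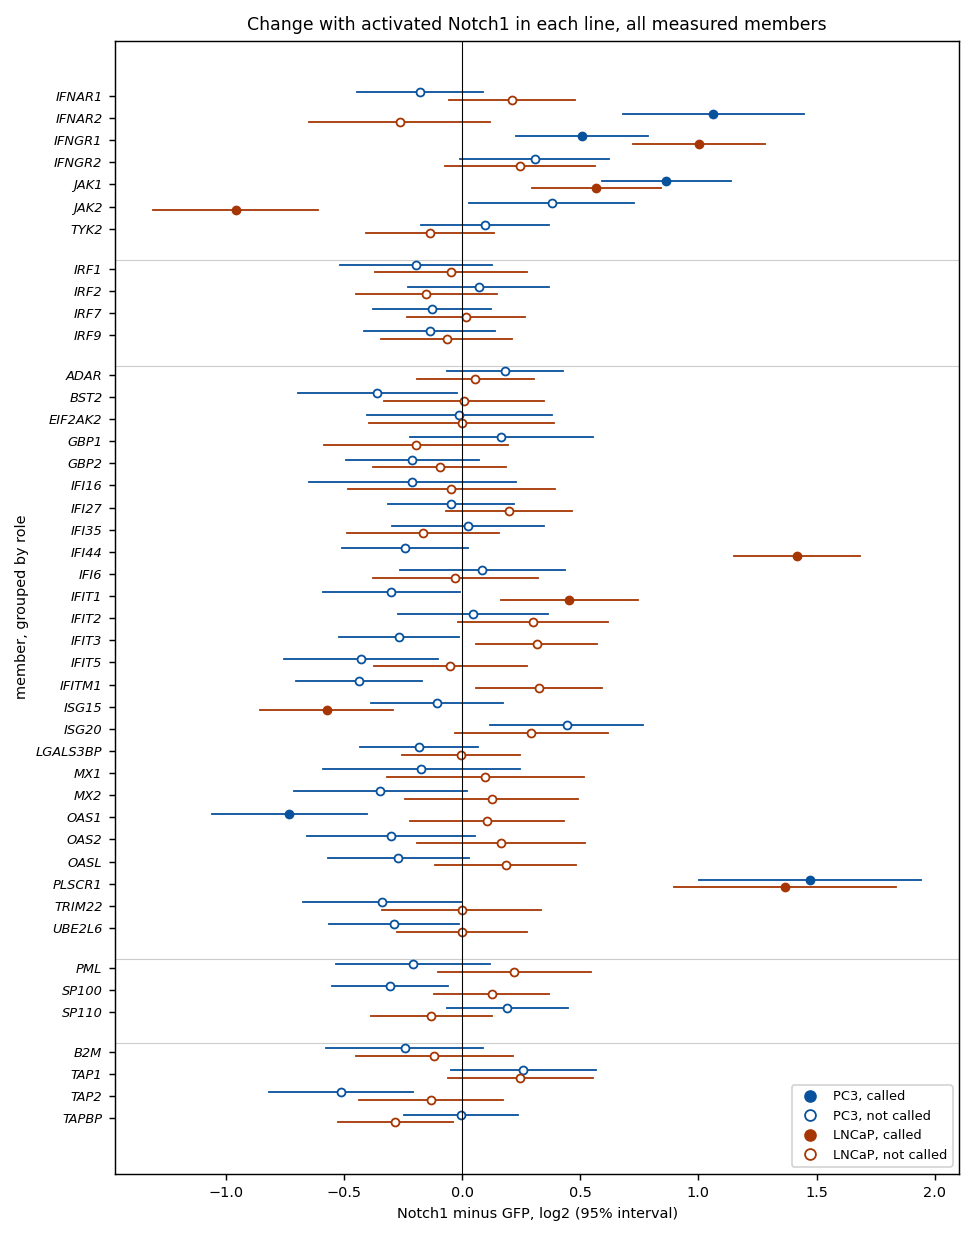
Change with activated Notch1 for the 44 measured members, grouped by role from receptors at the top to antigen processing at the bottom. The x axis gives Notch1 minus GFP in log2 units with its 95% interval from limma, blue for PC3 and brown for LNCaP, and filled points passed an adjusted p of 0.05. Most points lie near 0, and the filled ones are 5 in PC3 and 7 in LNCaP, led by PLSCR1 in both lines (1.47 and 1.37) and IFI44 in LNCaP (1.42).

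Among the receptors and kinases, 3 of 7 (42.9%) rose in PC3, beside 4.19% of all probe sets, and in LNCaP 2 rose (28.6% beside 8.01%) and 1 fell (14.3% beside 9.32%). JAK1, the kinase shared by both interferon receptors and by many cytokine receptors, read 7.31 and 7.43 in PC3 GFP, 8.35 and 8.12 in PC3 Notch1, 5.95 and 6.03 in LNCaP GFP, and 6.59 and 6.53 in LNCaP Notch1. The Notch1 arrays were above the GFP arrays in each line without overlap, where 56% of all probe sets in PC3 and 57% in LNCaP did not overlap in either direction. JAK1 rose by 0.86 ± 0.12 (SE) in PC3 (limma, adjusted p = 0.00227) and by 0.57 ± 0.12 in LNCaP (adjusted p = 0.00931). Its other 2 probe sets were called in PC3 (0.66, adjusted p = 0.021, and 0.58, adjusted p = 0.0486) and not in LNCaP (0.23 and 0.32). Leaving out replicate 1 of either LNCaP group also ended the LNCaP call, with 0.53 (adjusted p = 0.0616) for the GFP array and 0.53 (adjusted p = 0.0646) for the Notch1 array.

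IFNGR1, the ligand-binding chain of the interferon gamma receptor, read 5.02 and 5.19 in PC3 GFP, 5.52 and 5.70 in PC3 Notch1, 5.90 and 6.04 in LNCaP GFP, and 6.91 and 7.03 in LNCaP Notch1. No Notch1 array fell within the range of its control. The rise was 1.00 ± 0.13 in LNCaP (limma, adjusted p = 0.000348), which held in 16 of 16 alternatives of the analysis, and 0.51 ± 0.13 in PC3 (adjusted p = 0.043). The PC3 call was lost in 9 of 16 alternatives, with adjusted p up to 0.226 without PC3 Notch1 replicate 2, 0.12 without its replicate 1, 0.215 without PC3 GFP replicate 1, 0.0515 without either LNCaP GFP array, 0.0678 without either LNCaP Notch1 array and 0.107 with values under log2 5 raised to log2 5. IFNGR2, the partner chain that brings JAK2 to the receptor, changed by 0.31 in PC3 and 0.25 in LNCaP and was called in neither.

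IFNAR2, a chain of the type I interferon receptor, read 5.13 and 5.34 in PC3 GFP and 6.24 and 6.36 in PC3 Notch1. In LNCaP it read 5.69 and 5.80 with GFP and 5.20 and 5.76 with Notch1. The PC3 groups stood clearly apart, whereas in LNCaP the second Notch1 array lay between the control arrays. IFNAR2 rose by 1.06 ± 0.17 in PC3 (limma, adjusted p = 0.0052, and 0.0648 without PC3 Notch1 replicate 2), with a value of -0.26 in LNCaP (adjusted p = 0.366). The change in LNCaP less that in PC3 was -1.33 ± 0.24 (limma, adjusted p = 0.0056). Raising values under log2 5 to log2 5 ended both calls (adjusted p = 0.0992 in PC3 and 0.076 for the difference), and averaging the IFNAR2 probe sets gave 0.71 in PC3 and -0.71 for the difference (adjusted p = 0.00702 and 0.0205). A second IFNAR2 probe set gave 0.95 in PC3 (adjusted p = 0.011) and -0.03 in LNCaP, and the last was called in neither line (0.12 and 0.30). IFNAR1, the other chain, gave -0.18 in PC3 and 0.21 in LNCaP and was not called.

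JAK2 was low on all 8 arrays, with 2.73 and 3.07 in PC3 GFP, 3.25 and 3.31 in PC3 Notch1, 4.76 and 4.95 in LNCaP GFP, and 4.07 and 3.72 in LNCaP Notch1. It fell by 0.96 ± 0.16 in LNCaP (limma, adjusted p = 0.00184), where both Notch1 arrays were below both controls, and gave 0.38 in PC3 (adjusted p = 0.171). With values under log2 5 raised to log2 5 no change in JAK2 was left to measure. TYK2, the kinase on IFNAR1, gave 0.10 in PC3 and -0.14 in LNCaP and was called in neither.

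The transcription factors of the pathway showed no call in either line. IRF1, IRF2, IRF7 and IRF9 changed by -0.20 to 0.07 in PC3 and by -0.15 to 0.02 in LNCaP, with adjusted p from limma of 0.411 or more in PC3 and 0.523 or more in LNCaP. Their levels on the arrays ran from 5.94 to 6.44 for IRF1, 6.09 to 6.64 for IRF2, 6.00 to 6.70 for IRF7 and 7.94 to 8.25 for IRF9, which is the DNA-binding part of the complex that reads the ISRE.

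Of the 26 antiviral effectors, 1 rose and 1 fell in PC3 (3.85% each), and 3 rose (11.5%) and 1 fell (3.85%) in LNCaP, beside the shares of all probe sets given above. PLSCR1, a phospholipid scramblase induced by interferon, read 7.94 and 8.70 in PC3 GFP, 9.74 and 9.85 in PC3 Notch1, 5.56 and 5.84 in LNCaP GFP, and 7.00 and 7.13 in LNCaP Notch1. Both lines were higher with Notch1 without overlap, although the PC3 controls were the most spread of the pairs. The rise was 1.47 ± 0.21 in PC3 (2.77-fold, limma, adjusted p = 0.00244) and 1.37 ± 0.21 in LNCaP (2.58-fold, adjusted p = 0.00128), and the change in LNCaP less that in PC3 was -0.11 with a 95% interval of -0.77 to 0.56. With values under log2 5 raised to log2 5 its changes were the same and both calls were lost (adjusted p = 0.0924 in PC3 and 0.0557 in LNCaP). Its probe set carries the maker's suffix for probes chosen under relaxed rules, and no other was available for a check.

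IFI44, an interferon-induced cytoplasmic protein, read 6.54 and 6.66 in PC3 GFP, 6.25 and 6.46 in PC3 Notch1, 6.06 and 6.12 in LNCaP GFP, and 7.48 and 7.54 in LNCaP Notch1. The LNCaP Notch1 arrays were the highest of all 8, and the PC3 Notch1 arrays were below their controls. IFI44 rose by 1.42 ± 0.12 in LNCaP (2.67-fold, limma, adjusted p = 2.14e-05) and gave -0.24 in PC3 (adjusted p = 0.236). The change in LNCaP less that in PC3 was 1.66 ± 0.17 (limma, adjusted p = 0.000177). The LNCaP call held in 16 of 16 alternatives and the difference in 15 of 15.

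IFIT1, which binds viral RNA that lacks the host cap structure, read 6.63 and 6.72 in PC3 GFP, 6.50 and 6.26 in PC3 Notch1, 4.48 and 4.31 in LNCaP GFP, and 4.77 and 4.92 in LNCaP Notch1. It rose by 0.45 ± 0.13 in LNCaP (limma, adjusted p = 0.037), at low values, and gave -0.30 in PC3 (adjusted p = 0.187). A second IFIT1 probe set was called in LNCaP too (0.62, adjusted p = 0.00844). Its values there were lower still, 3.49 and 3.36 with GFP and 4.03 and 4.06 with Notch1. The call on the first was lost in 7 of 16 alternatives, among them without any single LNCaP array (0.37 to 0.54, adjusted p = 0.063 without GFP replicate 1, 0.232 without GFP replicate 2, 0.0774 without Notch1 replicate 1 and 0.202 without Notch1 replicate 2) and after median centring (0.39, adjusted p = 0.0771) or quantile normalization (0.38, adjusted p = 0.0669). With values under log2 5 raised to log2 5 no change of IFIT1 was left in LNCaP.

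OAS1 makes the oligoadenylate messenger that activates RNase L. It read 6.72 and 7.14 in PC3 GFP, 6.27 and 6.12 in PC3 Notch1, 4.51 and 4.45 in LNCaP GFP, and 4.53 and 4.64 in LNCaP Notch1. OAS1 fell by 0.73 ± 0.15 in PC3 (limma, adjusted p = 0.0171) and gave 0.11 in LNCaP, where it was low on all arrays on this probe set. The fall lost its call with values under log2 5 raised to log2 5 (adjusted p = 0.107) and without PC3 Notch1 replicate 1 (-0.81, adjusted p = 0.0788) or replicate 2 (-0.66, adjusted p = 0.141), and the second OAS1 probe set gave -0.47 (adjusted p = 0.0577).

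ISG15, a ubiquitin-like protein that is attached to other proteins after interferon, read 11.40 and 11.32 in PC3 GFP, 11.21 and 11.29 in PC3 Notch1, 9.36 and 9.14 in LNCaP GFP, and 8.77 and 8.58 in LNCaP Notch1. ISG15 fell by 0.57 ± 0.13 in LNCaP (limma, adjusted p = 0.0102) while IFI44 and IFIT1 rose there, and gave -0.11 in PC3. Its second probe set was not called in LNCaP (-0.33, adjusted p = 0.143), and the call on the first ended when LNCaP GFP replicate 1 (-0.47, adjusted p = 0.0905) or LNCaP Notch1 replicate 2 (-0.48, adjusted p = 0.0864) was left out. UBE2L6, the conjugating enzyme for ISG15, gave -0.29 in PC3 and 0.00 in LNCaP and was called in neither.

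**Figure D2:**
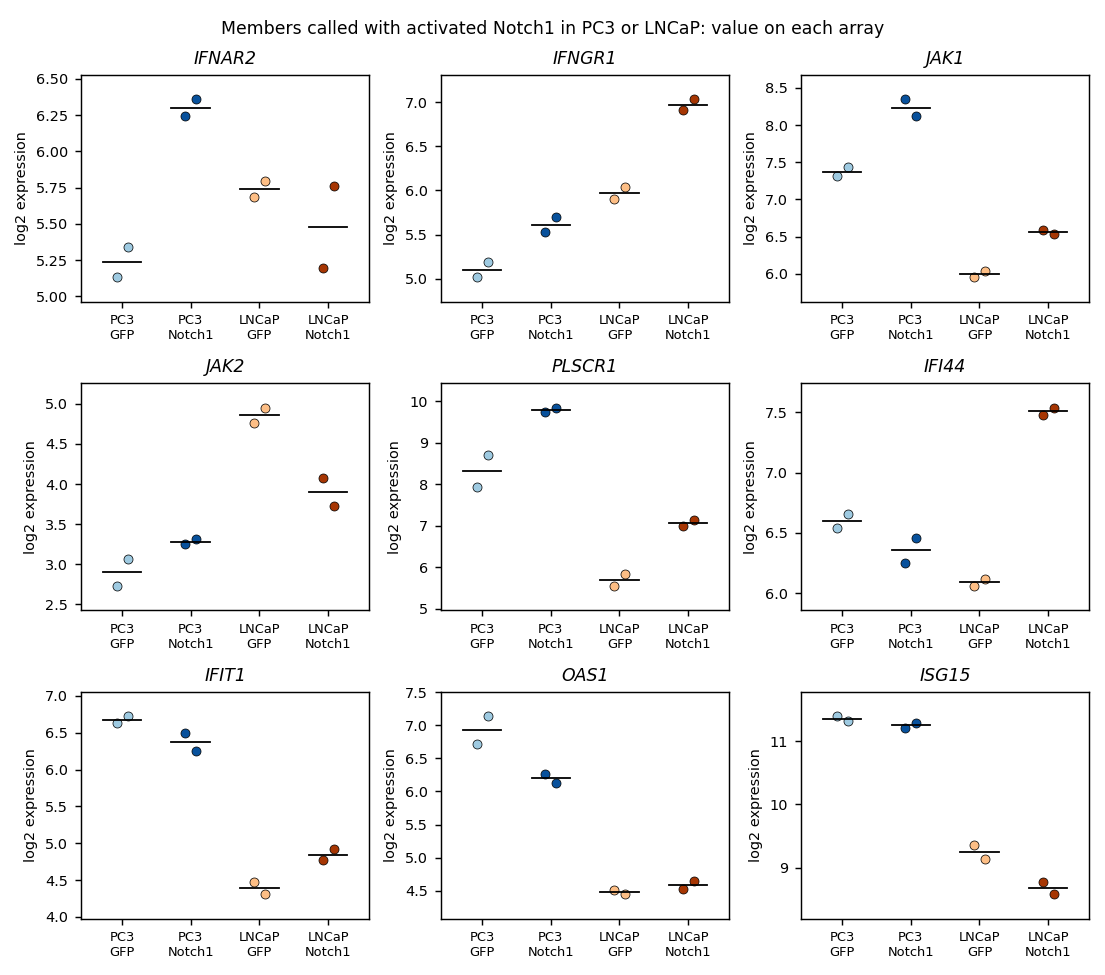
Log2 expression on each of the 8 arrays for the 9 members called with activated Notch1 in PC3 or LNCaP, with 2 points per group and a line at their mean. Each panel has its own y axis. PLSCR1, IFNGR1 and JAK1 are higher with Notch1 in both lines, IFI44 is higher in LNCaP (7.48 and 7.54 against 6.06 and 6.12), and IFNAR2 is higher in PC3 (6.24 and 6.36 against 5.13 and 5.34).

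The other 21 effectors were called in neither line with activated Notch1. They include sensors and enzymes such as IFI16, EIF2AK2 (the kinase PKR, -0.01 in PC3) and ADAR (0.18 and 0.05), the GTPases MX1 (-0.17 and 0.10), MX2 (-0.35 and 0.13), GBP1 (0.16 and -0.20) and GBP2 (-0.21 and -0.10), and the synthetases OAS2 (-0.30 and 0.17) and OASL (-0.27 and 0.18), each pair of values giving PC3 and then LNCaP. IFI6 gave 0.09 and -0.03, IFI27 -0.05 and 0.20, IFI35 0.03 and -0.17, IFIT2 0.05 and 0.30, IFIT5 -0.43 and -0.05, BST2 -0.36 and 0.01, and LGALS3BP -0.18 in PC3. Leaving out PC3 GFP replicate 2 brought calls in PC3 for IFIT5 (-0.64, adjusted p = 0.0173), MX2 (-0.63, adjusted p = 0.016) and BST2 (-0.56, adjusted p = 0.0359). Further probe sets with the opposite sign, called on neither, were present for IFI6, IFIT2, EIF2AK2, IRF2, B2M and ISG15 in PC3, for OAS1, OAS2, OASL, SP100 and IFNAR2 in LNCaP, and for IFI35 in both. ISG20, an exonuclease of viral RNA, gave 0.44 in PC3 (adjusted p = 0.102) and 0.29 in LNCaP.

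The antigen processing genes and the PML body genes showed no call in either line on their chosen probe sets and the deposited values. TAP1 and TAP2 form the pump that moves peptides into the endoplasmic reticulum, TAPBP (tapasin) holds the pump next to MHC class I, and B2M is the light chain of MHC class I. TAP1 gave 0.26 in PC3 and 0.25 in LNCaP, TAP2 -0.51 and -0.13, TAPBP -0.01 and -0.28, and B2M -0.24 and -0.12. The value of TAP2 in PC3, with 7.85 and 7.76 in the controls and 7.45 and 7.13 with Notch1, had an adjusted p of 0.0541 in limma, and 0.044 when the dimmest probe sets, up to the 25th percentile, were left out. For PML, the scaffold of the bodies, one of 4 probe sets was called in LNCaP (0.50, adjusted p = 0.0269), while the chosen one gave 0.22. SP100 gave -0.31 and 0.12 and SP110 0.19 and -0.13, in PC3 and LNCaP. With values under log2 5 raised to log2 5, SP100 was called lower in PC3 (-0.31, adjusted p = 0.0213 in limma). TAPBP was called lower in LNCaP in that setting (-0.28, adjusted p = 0.011).

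The next question was whether a member moved differently in the 2 lines, by the change in LNCaP minus the change in PC3. IFI44 (1.66), OAS1 (0.84), IFITM1 (0.76), IFIT1 (0.75) and IFIT3 (0.58) were higher by this test and JAK2 (-1.34) and IFNAR2 (-1.33) lower. Further probe sets differed for IFIT1 (0.62, adjusted p = 0.0515), OAS1 (0.44, adjusted p = 0.126), IFNAR2 (0.19 on 1 of 2) and PML (0.67, called at an adjusted p of 0.0408 on 1 of 3), and had the opposite sign, called on neither, for IFI6, IFI35, OASL, IRF2, EIF2AK2 and B2M. The 5 and 2 members are 11.4% and 4.55% of the 44, beside 6.49% and 7.67% of all probe sets. All 5 higher members were antiviral effectors, and the median difference was 0.26 over the 26 effectors, 0.16 over the 44 members and 0.12 over all probe sets. Of all calls in this comparison 45.8% were higher, and 30.4% after median centring of the arrays, which gave 4 higher and 2 lower members.

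IFITM1, a membrane protein that limits virus entry, was called in this comparison and, on the deposited values, in none of the others. It read 7.01 and 6.90 in PC3 GFP, 6.43 and 6.61 in PC3 Notch1, 6.76 and 6.90 in LNCaP GFP, and 7.15 and 7.15 in LNCaP Notch1. The Notch1 arrays were below their controls in PC3 and above them in LNCaP, with values of -0.44 (adjusted p = 0.0593, and 0.0454 without the dimmest probe sets) and 0.33 (adjusted p = 0.0946) and a difference of 0.76 ± 0.17 (limma, adjusted p = 0.0143). The call was lost without PC3 Notch1 replicate 1 (0.67, adjusted p = 0.0702) or LNCaP GFP replicate 1 (0.69, adjusted p = 0.0511). IFIT3, a partner of IFIT1, read 5.46 and 5.29 in PC3 GFP, 5.08 and 5.14 in PC3 Notch1, 4.27 and 4.31 in LNCaP GFP, and 4.63 and 4.58 in LNCaP Notch1, and its groups too lay apart in opposite directions. Its difference of 0.58 (adjusted p = 0.0388) was lost in 11 of 15 alternatives, with adjusted p up to 0.143, and without any 1 array other than PC3 GFP replicate 2 (adjusted p 0.0815 to 0.126). That of OAS1 (0.84, adjusted p = 0.0249) was lost in 7 of 15, among them without PC3 Notch1 replicate 1 or 2 (adjusted p = 0.0565 and 0.0973), LNCaP GFP replicate 2 (0.0694) and LNCaP Notch1 replicate 1 or 2 (0.0597 and 0.0898). That of IFIT1 (0.75, adjusted p = 0.0231) was lost without PC3 Notch1 replicate 2 (0.0988), LNCaP GFP replicate 2 (0.0888) or LNCaP Notch1 replicate 2 (0.0846), and came to 0.30 (adjusted p = 0.234) with values under log2 5 raised to log2 5.

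Leukocyte markers were also read in these cultured lines. Their median changes had the same signs as those of the effectors, which were -0.21 in PC3 and 0.08 in LNCaP. The 14 measured of 15 had a median change of -0.26 in PC3, 0.11 in LNCaP and 0.36 for the difference, and none was called in either line. Their summed log2 level was 67.5 to 70.0 in PC3 GFP, 64.8 to 66.2 in PC3 Notch1, 69.7 to 69.8 in LNCaP GFP and 70.5 to 71.4 in LNCaP Notch1, with 7 or 8 of the 14 under log2 5 on every array. Others read higher on all arrays, NKG7 at 7.32 to 8.00, CD14 at 7.18 to 7.81 and CD3E at 6.54 to 7.33. A value above log2 5 thus does not by itself show expression. The part of these markers in the result was not tested.

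The GFP arrays of both lines were also compared with each other, and these arrays are the controls of the comparisons above. In LNCaP GFP 22 members were lower and 9 higher than in PC3 GFP, or 50% and 20.5% of the 44, beside 18.5% and 40.3% of all probe sets. The median difference was -0.39 over the members and 0.22 over all probe sets. Because the LNCaP arrays had the higher medians, centring each array on its median moved the median over all probe sets to -0.06 and that of the members to -0.67. It gave 29 members lower and 5 higher, beside 30.7% and 26.5% of all probe sets, and the share of all calls that were higher went from 68.6% to 46.3%. The 3' minus 5' difference of GAPDH given above also separated the lines, and its part cannot be told apart from the line. At 2-fold or more, 12 called members were lower and 3 higher in LNCaP GFP, and the share of all probe sets at that size was not counted.

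**Figure D3:**
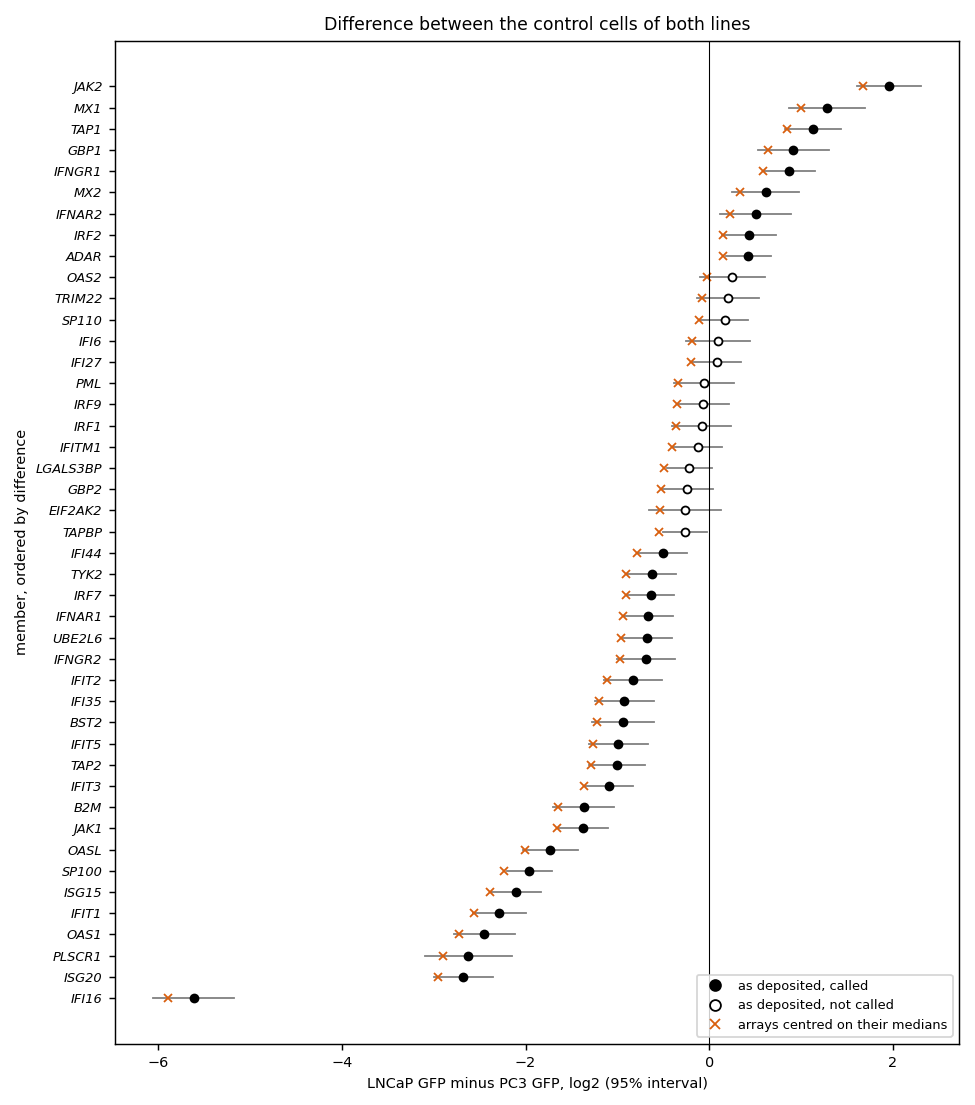
Difference between LNCaP GFP and PC3 GFP for the 44 measured members, ordered by size on the y axis. The x axis is in log2 units, with points and 95% intervals from limma on the deposited values, filled where the adjusted p was under 0.05, and crosses for the difference after each array was centred on its median. The members run from -5.61 (IFI16) to 1.96 (JAK2), and the crosses lie left of the points for every member.

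Of the 26 effectors, 14 were lower (53.8%) and 4 higher (15.4%), beside 18.5% and 40.3% of all probe sets, with a median of -0.59. IFI16, a sensor of foreign DNA, read 6.99 and 7.21 in PC3 GFP and 6.82 and 6.96 in PC3 Notch1, against 1.82 and 1.16 in the LNCaP controls and 1.57 and 1.32 with Notch1. Its readings lay in the middle of the scale in PC3 and near the bottom in LNCaP, with or without Notch1. The difference was -5.61 ± 0.20 (limma, adjusted p = 1.9e-09), or -2.10 with values under log2 5 raised to log2 5.

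ISG20 read 9.70 and 9.55 in PC3 GFP, 10.23 and 9.91 in PC3 Notch1, 7.04 and 6.86 in LNCaP GFP, and 7.35 and 7.14 in LNCaP Notch1. Its difference was -2.68 ± 0.15 (limma, adjusted p = 5.85e-08). For members already listed by array, the difference was -2.62 for PLSCR1 (adjusted p = 1.4e-06), -2.45 for OAS1 (1.34e-07), -2.28 for IFIT1 (8.6e-08), -2.11 for ISG15 (1.28e-07), -1.09 for IFIT3 (1.13e-05) and -0.51 for IFI44 (0.00399). None of these control groups overlapped, which was also so for 78.4% of all probe sets. IFI44 was thus lower in LNCaP than in PC3 control cells and higher in LNCaP Notch1 than in either PC3 group.

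OASL, a relative of the synthetases without their enzyme activity, read 6.94 and 6.79 in PC3 GFP, 6.74 and 6.44 in PC3 Notch1, 5.06 and 5.21 in LNCaP GFP, and 5.30 and 5.34 in LNCaP Notch1 (difference -1.73, adjusted p = 9.96e-07 in limma). IFI35 read 7.07 and 6.85 in PC3 GFP, 7.10 and 6.86 in PC3 Notch1, 5.97 and 6.10 in LNCaP GFP, and 6.00 and 5.73 in LNCaP Notch1 (-0.92, adjusted p = 0.000242). The RNA-binding IFIT family was lower in LNCaP for all 4 members measured. IFIT2 read 6.23 and 6.05 in PC3 GFP, 5.99 and 6.37 in PC3 Notch1, 5.33 and 5.27 in LNCaP GFP, and 5.58 and 5.63 in LNCaP Notch1 (-0.83, adjusted p = 0.00046). IFIT5, low on all arrays, read 4.45 and 4.03 in PC3 GFP, 3.84 and 3.79 in PC3 Notch1, 3.31 and 3.19 in LNCaP GFP, and 3.14 and 3.27 in LNCaP Notch1 (-0.99, adjusted p = 0.00016). With values under log2 5 raised to log2 5 nothing was left of IFIT5, and the difference of IFIT3 came to -0.38 (adjusted p = 0.00889).

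BST2 (tetherin), which holds budding virus at the cell surface, read 5.74 and 5.34 in PC3 GFP, 5.29 and 5.06 in PC3 Notch1, 4.68 and 4.53 in LNCaP GFP, and 4.60 and 4.62 in LNCaP Notch1 (difference -0.94, adjusted p = 0.000307 in limma). UBE2L6 read 6.05 and 5.85 in PC3 GFP, 5.56 and 5.76 in PC3 Notch1, 5.30 and 5.25 in LNCaP GFP, and 5.30 and 5.25 in LNCaP Notch1 (-0.68, adjusted p = 0.000722). In both, every LNCaP array was below every PC3 array. The BST2 call was lost with values under log2 5 raised to log2 5 (-0.54, adjusted p = 0.0588).

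Against this direction, the GTPases MX1, MX2 and GBP1 and the RNA editing enzyme ADAR were higher in LNCaP GFP. MX1 read 3.71 and 3.74 in PC3 GFP, 3.20 and 3.90 in PC3 Notch1, 5.00 and 5.01 in LNCaP GFP, and 5.12 and 5.08 in LNCaP Notch1 (difference 1.28, adjusted p = 0.000149 in limma). MX2 read 3.83 and 3.27 in PC3 GFP, 3.18 and 3.23 in PC3 Notch1, 4.21 and 4.12 in LNCaP GFP, and 4.32 and 4.26 in LNCaP Notch1 (0.61, adjusted p = 0.00829). These values and those of GBP1 were near or under log2 5, so with low values raised to log2 5 nothing was left of MX2 and GBP1 and 0.003 of MX1. GBP1 read 3.02 and 3.15 in PC3 GFP, 3.11 and 3.39 in PC3 Notch1, 3.76 and 4.24 in LNCaP GFP, and 3.67 and 3.94 in LNCaP Notch1 (0.92, adjusted p = 0.00098). ADAR, well expressed, read 10.20 and 10.24 in PC3 GFP, 10.37 and 10.43 in PC3 Notch1, 10.60 and 10.70 in LNCaP GFP, and 10.74 and 10.67 in LNCaP Notch1 (0.43, adjusted p = 0.0069). The calls on MX2 and ADAR were lost after median centring (0.33, adjusted p = 0.101, and 0.15, adjusted p = 0.275), and without PC3 GFP replicate 2 for MX2 (0.33, adjusted p = 0.0641) and LNCaP GFP replicate 2 for ADAR (0.38, adjusted p = 0.0599).

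All 7 receptors and kinases differed between the control cells, 3 higher in LNCaP (42.9%) and 4 lower (57.1%), beside 40.3% and 18.5% of all probe sets. JAK2 (1.96 ± 0.16, limma, adjusted p = 1.34e-06, low values), IFNGR1 (0.87 ± 0.13, adjusted p = 0.000144) and IFNAR2 (0.50 ± 0.17, adjusted p = 0.0276) were higher, and JAK1 was lower (-1.38 ± 0.12, adjusted p = 3.11e-06). Nothing was left of JAK2 with values under log2 5 raised to log2 5. The call on IFNAR2 was lost in that setting (adjusted p = 0.147), after median centring (0.22, adjusted p = 0.311), without PC3 GFP replicate 1 (0.40, adjusted p = 0.119) and without LNCaP GFP replicate 2 (0.45, adjusted p = 0.103), while its other probe sets were called (1.54 and 0.63).

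The receptor chains IFNAR1 and IFNGR2 and the kinase TYK2 were lower in LNCaP. IFNAR1 read 5.70 and 5.75 in PC3 GFP, 5.43 and 5.66 in PC3 Notch1, 5.06 and 5.07 in LNCaP GFP, and 5.23 and 5.32 in LNCaP Notch1 (difference -0.66, adjusted p = 0.000694 in limma). IFNGR2 read 10.19 and 9.95 in PC3 GFP, 10.47 and 10.28 in PC3 Notch1, 9.39 and 9.38 in LNCaP GFP, and 9.78 and 9.48 in LNCaP Notch1 (-0.69, adjusted p = 0.00173). For TYK2 the arrays gave 8.28 and 8.23 in PC3 GFP, 8.33 and 8.37 in PC3 Notch1, 7.73 and 7.52 in LNCaP GFP, and 7.56 and 7.42 in LNCaP Notch1 (-0.63, adjusted p = 0.00109). LNCaP controls thus had the higher level of the ligand-binding chain of the gamma receptor and the lower level of its partner chain, each set against PC3 on its own probe set.

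Antigen processing genes were split. TAP1 was higher in LNCaP, with 6.85 and 6.53 in PC3 GFP, 6.96 and 6.94 in PC3 Notch1, 7.83 and 7.80 in LNCaP GFP, and 8.18 and 7.94 in LNCaP Notch1 (difference 1.13 ± 0.14, limma, adjusted p = 3.63e-05). Its partner TAP2 was lower, with 7.85 and 7.76 in PC3 GFP, 7.45 and 7.13 in PC3 Notch1, 6.88 and 6.72 in LNCaP GFP, and 6.74 and 6.59 in LNCaP Notch1 (-1.0 ± 0.14, adjusted p = 8.67e-05). The subunits of the transporter differed between the lines in opposite directions, on all arrays and with either scaling. B2M was lower in LNCaP, with 13.14 and 12.95 in PC3 GFP, 12.84 and 12.77 in PC3 Notch1, 11.81 and 11.54 in LNCaP GFP, and 11.73 and 11.40 in LNCaP Notch1 (-1.37 ± 0.15, adjusted p = 1.51e-05), and its other probe sets gave -0.84 and -0.78. TAPBP gave -0.27 (adjusted p = 0.0568), and was called at -0.55 (adjusted p = 0.0014) after median centring and -0.41 (adjusted p = 0.00641) after quantile normalization. The value of -0.27 was itself called with the floor at log2 5 (adjusted p = 0.00335) and the filter at the 25th percentile (0.0458). It was also called with averaged probe sets (0.0416), an intensity trend (0.0438) and a replicate block (0.0349).

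SP100, a defining protein of the PML bodies, read 6.72 and 6.64 in PC3 GFP, 6.39 and 6.36 in PC3 Notch1, 4.68 and 4.77 in LNCaP GFP, and 4.85 and 4.84 in LNCaP Notch1 (difference -1.96 ± 0.11, limma, adjusted p = 7.68e-08). Of its further probe sets, one gave -1.81 and the other was not called (-0.18). PML itself gave -0.06 on its chosen probe set and was called lower on a further one (-0.36, adjusted p = 0.0159).

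Among the factors, IRF7, which amplifies type I interferon, was lower in LNCaP, with 6.70 and 6.60 in PC3 GFP, 6.57 and 6.48 in PC3 Notch1, 6.04 and 6.01 in LNCaP GFP, and 6.00 and 6.08 in LNCaP Notch1 (-0.63, adjusted p = 0.000627 in limma). IRF2, which competes with IRF1 for its sites, read 6.20 and 6.10 in PC3 GFP, 6.35 and 6.09 in PC3 Notch1, 6.64 and 6.53 in LNCaP GFP, and 6.54 and 6.33 in LNCaP Notch1 (0.43, adjusted p = 0.0174). The IRF2 call was lost after median centring (0.15, adjusted p = 0.359), without PC3 GFP replicate 2 (0.38, adjusted p = 0.0718) and without LNCaP GFP replicate 1 (0.38, adjusted p = 0.0985), and its second probe set gave -0.24. IRF1 and IRF9 were not called, with -0.08 and -0.07, and were called lower after median centring (-0.36, adjusted p = 0.0458, and -0.35, adjusted p = 0.0397). With quantile normalization IRF1 was called lower (-0.36, adjusted p = 0.0441) and IRF9 was not called (-0.22, adjusted p = 0.132).

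**Figure D4:**
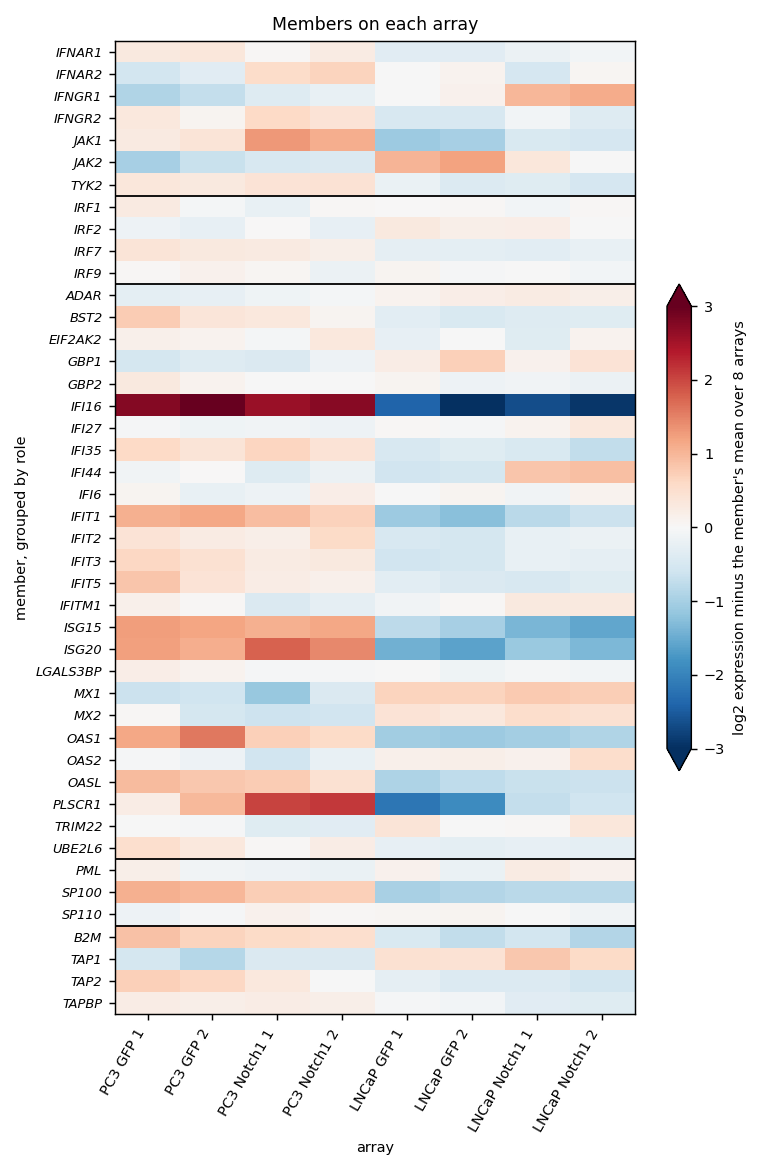
Log2 expression of the 44 members (rows, grouped by role) on the 8 arrays (columns), each as its distance from the member's own mean over the arrays, red above and blue below, with the color scale ending at 3 in either direction. The left 4 columns (PC3) and right 4 (LNCaP) differ more than the GFP and Notch1 columns within a line for IFI16, ISG20, OAS1, ISG15 and SP100, whereas IFI44 stands out in the LNCaP Notch1 columns.

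The 12 members called in none of the comparisons on the deposited values were IFI6, IFI27, OAS2, IRF1, IRF9, EIF2AK2, GBP2, SP110, PML, TRIM22, LGALS3BP and TAPBP. After median centring, EIF2AK2 (-0.54, adjusted p = 0.0233 in limma), GBP2 (-0.52, adjusted p = 0.00408) and LGALS3BP (-0.50, adjusted p = 0.00287) were lower in LNCaP GFP, like IRF1, IRF9 and TAPBP. Quantile normalization kept the calls on GBP2, LGALS3BP, IRF1 and TAPBP. It gave none for EIF2AK2 (-0.25, adjusted p = 0.313 in limma) or IRF9 (-0.22, adjusted p = 0.132). The second EIF2AK2 probe set was not called on the deposited values (-0.16, adjusted p = 0.412). A further OAS2 probe set gave -0.16 between the controls against 0.25 on the chosen one, called on neither. EIF2AK2 read 9.89 to 10.56 on its chosen probe set, which has the suffix f, and only 5.27 to 6.08 on its other one. Its level is thus uncertain. LGALS3BP, a secreted glycoprotein, read 7.99 to 8.31. TRIM22, a restriction factor of the ubiquitin ligase family, was near the bottom of the scale on all arrays (1.89 to 2.65), and SP110 (4.04 to 4.34) and GBP2 (4.50 to 4.97) were low throughout. In all, 7 members were under log2 5 on every array and 30 on none.

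The calls were set beside the ISRE letters as a description, with no test. Of all probe sets, 4.19% were called higher and 2.01% lower in PC3, and 8.01% and 9.32% in LNCaP. Between the control cells, 40.3% were called higher and 18.5% lower in LNCaP GFP. Of the 19 members whose windows held an ISRE, 1 rose in PC3, 3 rose and 1 fell in LNCaP, and 3 were higher and 10 lower in LNCaP GFP than in PC3 GFP. The 15 members with windows that lacked it had 2 higher and 1 lower in PC3, 2 and 1 in LNCaP, and 3 and 9 between the control cells. JAK1, JAK2 and IFNGR1 were among these 15, and their windows held none of the motifs searched. In LNCaP the ISRE-holding IFI44, IFIT1 and PLSCR1 rose and ISG15 fell, with the letters printed above.

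Other genes of the pathway were read against the same shares of all probe sets. Their lists were chosen by knowledge of the pathway, but with earlier results of these data known. The shares are thus a description and no test of the lists. Of 22 other interferon-stimulated genes measured, 1 rose and 1 fell in PC3 (4.55% each) and 4 rose in LNCaP (18.2%, beside 8.01% of all probe sets). SAMHD1, which depletes the nucleotides that viruses need, rose in both lines (0.56, limma, adjusted p = 0.0429, in PC3 and 0.85, adjusted p = 0.00186, in LNCaP). TNFSF10, the death ligand TRAIL, read 3.06 and 2.20 in LNCaP GFP and 6.49 and 6.46 in LNCaP Notch1 and 2.18 to 2.80 in PC3. It rose by 3.84 ± 0.25 in LNCaP (limma, adjusted p = 4.53e-06). RSAD2 (0.71, adjusted p = 0.00919, low values) rose in LNCaP as well, as did TRIM21 (0.47, adjusted p = 0.0366), which is named after its value was seen, and CXCL9, a chemokine, fell by 0.55 in PC3 (adjusted p = 0.029) at low values.

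Of 14 immunoproteasome and peptide loading genes, 2 rose in PC3 (14.3%, beside 4.19%), the endoplasmic reticulum chaperones CALR (0.54, limma, adjusted p = 0.0182) and PDIA3 (0.51, adjusted p = 0.0445), and 1 fell in LNCaP (7.14%, beside 9.32%), the proteasome activator PSME3 (-0.42, adjusted p = 0.0378). Of 21 sensing genes, interferons and signalling regulators, 1 rose in PC3 and 1 fell in LNCaP (4.76% each). SOCS2, a suppressor of cytokine signalling, rose in PC3 (0.94, adjusted p = 0.0221) and PTPN11, the phosphatase SHP2, fell in LNCaP (-0.64, adjusted p = 0.0142). The interferon genes on the array, IFNA1, IFNA2, IFNB1, IFNG and IFNW1, were under log2 5 on all arrays and were called in neither line.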

How the data were processed

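Total RNA was copied into cDNA with T7-oligo(dT) primers, and biotin-labelled cRNA was hybridized to the arrays. The deposited values are log2 expression after RMA, made by the authors in R, and no source used here gives the versions of RMA and limma. All 8 arrays keep their own distribution of values, so scalings between arrays were tried as alternatives. Groups were taken from the sample titles.

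Of 12625 probe sets, 67 Affymetrix controls were left out, which left 12558. The platform annotation gave 1 gene symbol to 10943 of them, several to 545 and none to 1070, and no member was named from a probe set with several. All 44 symbols matched RefSeq. Group means were fitted with limma 3.58.1 in R 4.3.3 on all arrays (4 residual and 6.37 prior degrees of freedom), which was first tested on simulated data, and p-values were adjusted by Benjamini-Hochberg over all 12558. The comparisons were Notch1 against GFP in each line, the difference of these changes, and LNCaP GFP against PC3 GFP. Members called in any comparison are given by array, others with their role group, and from the lists of further pathway genes the called genes with the most extreme changes. The members and lists were chosen with earlier results of these data known.

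Alternatives were median centring, quantile normalization, a floor at log2 5, a filter at the 25th percentile of level, averaging the probe sets of a gene, an intensity trend, a replicate block, each line alone, and leaving out each array. With 2 arrays per group, their number limits the precision. RMA pulls low values together, so changes near the bottom of the scale are uncertain. Probe sets with the suffixes s, r and f can respond to more than 1 transcript. NOTCH1 and HEY1 were not analysed here. Promoter sequences are from RefSeq (GRCh38.p14).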

Additional observations from a re-analysis of the deposited data

Results flagged for a closer look

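The change with activated Notch1 differed between LNCaP and PC3 for 7 members, by limma's test of the difference itself. It was higher in LNCaP by 1.66 for IFI44 (adjusted p = 0.000177, with 1.42 in LNCaP and -0.24 in PC3), by 0.84 for OAS1 (adjusted p = 0.0249, 0.11 and -0.73), by 0.76 for IFITM1 (adjusted p = 0.0143, 0.33 and -0.44), by 0.75 for IFIT1 (adjusted p = 0.0231, 0.45 and -0.30) and by 0.58 for IFIT3 (adjusted p = 0.0388, 0.31 and -0.27). It was lower in LNCaP for IFNAR2 (-1.33, adjusted p = 0.0056, with -0.26 in LNCaP and 1.06 in PC3) and for JAK2 (-1.34, adjusted p = 0.00314, with -0.96 and 0.38).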

How the results depend on the processing

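No member called with Notch1, in the difference between the lines or between the control cells changed direction under any alternative, leaving aside values that the floor at log2 5 set to 0. Raising values under log2 5 to log2 5, which lowered the prior degrees of freedom from 6.37 to 0.386, gave 1 member higher in PC3, 3 higher and 1 lower in the difference, and 3 higher in LNCaP GFP. SP100 (0.31, adjusted p = 0.0251) and TAPBP (-0.28, adjusted p = 0.0352) were called in the difference in this setting and not on the deposited values, TAPBP being the 1 lower. The same held for SP100 in PC3 (-0.31, limma, adjusted p = 0.0213). In LNCaP it held for TAPBP (-0.28, adjusted p = 0.011) and MX1 (0.10, adjusted p = 0.0222). Median centring gave 5 higher in LNCaP GFP, and quantile normalization 3 higher in the difference. A filter at the 25th percentile of level, which 38 members passed, gave 3 lower in PC3, 1 lower in LNCaP and 1 lower in the difference, since JAK2 was not among them. Averaging the probe sets of a gene gave 3 lower in PC3 and an intensity trend 2.

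Leaving out 1 array at a time gave 2 to 4 members higher and 0 to 4 lower in PC3 (0 without either PC3 Notch1 array, 4 without PC3 GFP replicate 2, and 2 higher without PC3 Notch1 replicate 2), 3 to 5 higher and 1 to 2 lower in LNCaP (3 higher without LNCaP GFP replicate 1 or LNCaP Notch1 replicate 1, and 1 lower without LNCaP GFP replicate 1 or LNCaP Notch1 replicate 2), and 2 to 7 higher in the difference (7 without PC3 GFP replicate 2, and 2 or 3 without any of the PC3 Notch1 or LNCaP arrays).

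No source says what a replicate number marks, so the samples share only a number; the deviations of replicate 1 correlated at 0.124 to 0.545 over probe sets between groups. With a replicate block, 5 members rose and 3 fell in PC3, 5 and 2 in LNCaP, and 6 were higher and 2 lower in the difference; the PC3 calls among all probe sets went from 526 higher and 253 lower to 919 and 588. ISG20 (0.44, adjusted p = 0.0246), IFITM1 (-0.44, adjusted p = 0.0337) and TAP2 (-0.51, adjusted p = 0.0155) were then called in PC3 and IFNGR1 in the difference (0.50, adjusted p = 0.0309).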
